A study of Mus musculus with 48 samples.

Results

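Tumors of WT mice that had received control IgG were compared with tumors of untreated WT mice, both harvested 6 h after the start of therapy. Of the 48 RNA-seq libraries of the series, 6 belonged to this comparison, 3 IgG tumors (replicates 1, 2 and 6) and 3 untreated tumors (replicates 1, 2 and 4), and they were chosen by the sample titles alone. All 6 mice were C57BL/6J, arrived at 4 weeks of age, were housed for 2 weeks and carried a subcutaneous B16-D5 tumor implanted 8 days before therapy. B16-D5 is a melanoma subclone from this strain, so the tumor cells of every mouse came from 1 source, and the hosts kept an intact immune system. IgG mice had received 250 µg of an IgG without anti-PD-1 specificity in 200 µL of PBS. Untreated mice had received nothing, so the IgG, the vehicle and the injection itself cannot be told apart. The labels assign 1 library to each tumor, and nothing states whether tumors shared a cage, litter or extraction day.

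The treatment field of the labels matched the title in only 3 of the 6 libraries, all untreated. That field reads Ctrl for IgG replicate 1 and aPD1 for IgG replicates 2 and 6, and the time field of untreated replicate 1 reads 0hrs where its title gives D0. Because the conflict touches all 3 IgG libraries, no fit without the conflicting ones was possible, and every value here rests on the titles. Depth was 25574203 to 35329474 counts on genes in the IgG libraries and 30148778 to 39594528 in the untreated libraries. Untreated replicates 2 and 4 were the most alike of the 6 libraries (Pearson r = 0.988 over log2 values), yet differed by far more than sampling noise, with a chi-square of 20.2 per gene.

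A control IgG is the standard comparator for a therapeutic antibody. It carries the Fc part that Fcγ receptors on macrophages, neutrophils and NK cells recognize, while its variable part has no intended target in the mouse. Antibody complexes can engage Fcγ receptors and complement, and handling and injection can raise stress hormones and immediate early genes. Type I interferons signal to genes with an ISRE motif, and IFN-γ, through the receptor chains Ifngr1 and Ifngr2, to genes with a GAS motif.

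No gene passed the adjusted threshold between IgG and untreated tumors. Power was low over all genes tested. Of 200 genes changed 2-fold in simulated counts the test called 16, and of 200 changed 4-fold it called 90. The changed genes were drawn at random from genes of any level, so power for abundant genes alone was not measured. Of 26848 genes tested with edgeR's quasi-likelihood test, 0 (0%) had an adjusted p under 0.05, and the smallest adjusted p was 0.760. Before adjustment, 1456 genes (5.42%) had a p under 0.05, of which 948 (3.53% of all tested) had more and 508 (1.89%) had less RNA with IgG. In counts simulated without any change, at least 1420 genes had such a p by edgeR. The Wald test of DESeq2 called 10 genes. Of these, 9 reached at most 2.07 CPM (CPM, the count scaled to a common library size) in any of the 6 libraries, among them the epithelial genes Ovol2, Dsg4 and Krtap2-4. Ifngr2 was the only abundant one, with an adjusted p of 0.0189 by DESeq2 against 0.760 by edgeR.

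Some genes had groups without overlap. Groups this small also separate by chance in a share of genes, so the counts that follow are not evidence of a change with IgG. Every IgG tumor exceeded every untreated tumor in 1577 genes (5.87%), and the reverse held in 621 (2.31%), 2198 (8.19%) in all. Direction differed between abundant protein-coding genes and the rest. Over the 12872 protein-coding genes of at least 1 CPM, the median log2 fold change was −0.04, with 147 genes higher and 385 lower at the same unadjusted threshold. Over the other 13976 genes, which were under 1 CPM or not protein-coding, it was 0.69, with 801 higher and 123 lower.

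**Figure D1:**
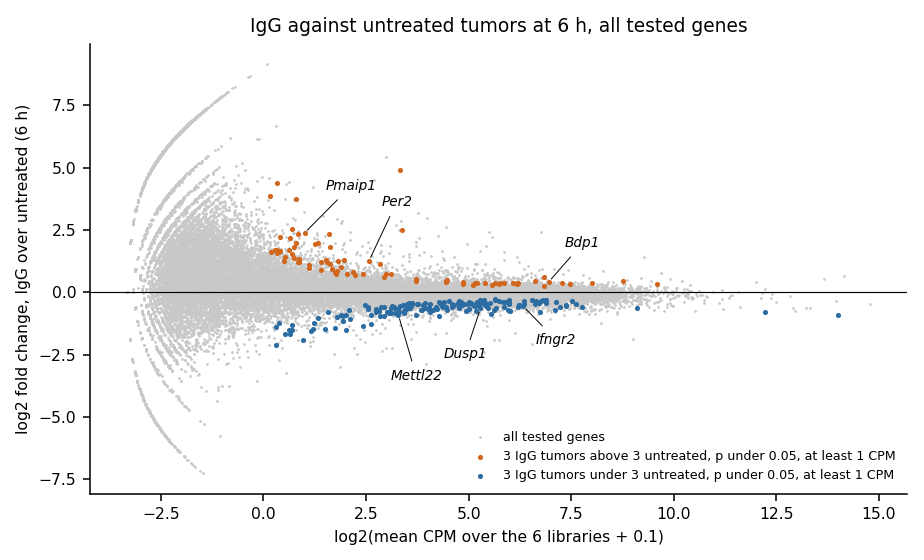
Log2 fold change of IgG over untreated tumors at 6 h (y axis) against log2 of the mean CPM over the 6 libraries plus 0.1 (x axis) for the 26848 tested genes. The 84 orange and 178 blue points are genes of at least 1 CPM on average with an unadjusted p under 0.05 by edgeR and no overlap between the 3 IgG and 3 untreated tumors, and none passed the adjusted threshold.

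Several libraries stood apart in ways that moved with these counts. In IgG replicate 6, long protein-coding genes were high against short ones, with a difference of the medians of 2.36 log2 units against 1.58 to 1.91 in the other 29 libraries of the first experiment. Over quartiles of exon length of the abundant protein-coding genes, the share higher with IgG was 28.2%, 38.7%, 46.9% and 62.3% from the shortest to the longest. The summed level of 1504 odorant, vomeronasal and taste receptor genes, which a melanoma is not known for, was 130 to 229 CPM in the IgG tumors and 15.4 to 79.4 CPM in the untreated tumors, with no shared range, and 19.1 to 307 CPM in the other 24 libraries. Without IgG replicate 6, the higher genes at that unadjusted level numbered 581 and the lower genes 124 by edgeR. With the sensory receptor level as a covariate, chosen with earlier results of these data known, the counts were 304 and 421, so lower genes made up 58.1% of these in place of 34.9%.

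**Figure D2:**
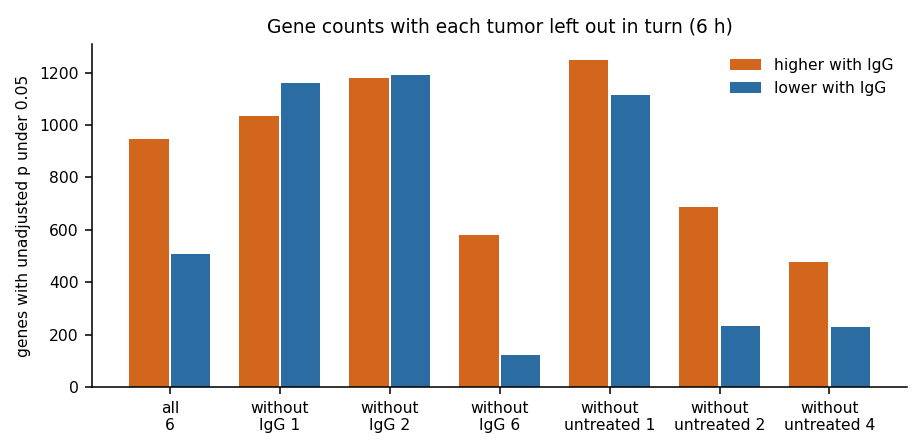
Number of genes with an unadjusted p under 0.05 by edgeR (y axis), higher (orange) or lower (blue) with IgG at 6 h, with all 6 tumors and with each tumor left out in turn (x axis). Lower genes ranged from 124 without IgG replicate 6 to 1189 without IgG replicate 2, and higher genes from 478 without untreated replicate 4 to 1247 without untreated replicate 1.

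Ifngr2 encodes the signaling chain of the IFN-γ receptor and lies at chr16:91547072-91565623 of GRCm38 on the forward strand. Its level was 65.9, 69.4 and 59.7 CPM in IgG replicates 1, 2 and 6 and 75.03, 106 and 106 CPM in untreated replicates 1, 2 and 4. The means were 65.0 ± 4.92 CPM (SD, n = 3) with IgG and 95.4 ± 17.7 CPM (SD, n = 3) without, a log2 fold change of −0.55 (SE 0.15) with an unadjusted p of 0.00103 by edgeR. All 3 IgG tumors were below all 3 untreated tumors, which was a condition for naming the gene, as was its small p. The other 24 libraries ranged from 61.0 to 88.6 CPM with a median of 72.6 CPM, so untreated replicates 2 and 4 stood above all of them, IgG replicate 6 stood below all of them, and IgG replicates 1 and 2 lay within their range. Untreated tumors at 0 h had 88.6, 78.2 and 61.0 CPM, and anti-PD-1 tumors at 6 h, which share the untreated 6 h controls, had 73.1, 72.0 and 67.7 CPM. Across the alternatives run, the log2 fold change lay between −0.71 and −0.34, and the adjusted p between 0.0189 and 1.

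Receptor genes next to Ifngr2 in the same cluster of chromosome 16 were named after their values were seen. Ifngr2 was chosen for its small p in these same tumors, so smaller differences in its neighbors were likely beforehand. No contrast with Ifngr2 is drawn from them. Ifnar1, a chain of the type I interferon receptor, had a log2 fold change of −0.02 (unadjusted p = 0.881 by edgeR). Ifnar2, its partner chain, had −0.18 (unadjusted p = 0.317 by edgeR), and Il10rb, which serves IL-10 family and type III interferon receptors, had −0.30 (unadjusted p = 0.213 by edgeR). Ifngr1, the ligand-binding chain for IFN-γ encoded on chromosome 10, was at 31.5, 39.6 and 51.5 CPM with IgG and 41.8, 29.97 and 26.8 CPM without, a log2 fold change of 0.31 (unadjusted p = 0.365 by edgeR).

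Promoters of Irf1, Bst2 and Ifngr2 are shown to mark where they match the GAS and ISRE motifs of interferon signaling, if at all. The sequences are the 250 bases before the RefSeq gene start on GRCm38.p6, read 5′ to 3′ on the gene's strand, with matches to GAS (TTCNNNGAA) or ISRE (GAAANNGAAA) in capitals. Both motifs were searched on both strands, and a GAS and an ISRE match may overlap. Irf1, an interferon-induced transcription factor, lies on chromosome 11 and its window is chr11:53769764-53770013 (forward). Bst2, the antiviral protein tetherin, is on chromosome 8 with the window chr8:71537473-71537722 (reverse), and the window of Ifngr2 is chr16:91546809-91547058 (forward).
Irf1: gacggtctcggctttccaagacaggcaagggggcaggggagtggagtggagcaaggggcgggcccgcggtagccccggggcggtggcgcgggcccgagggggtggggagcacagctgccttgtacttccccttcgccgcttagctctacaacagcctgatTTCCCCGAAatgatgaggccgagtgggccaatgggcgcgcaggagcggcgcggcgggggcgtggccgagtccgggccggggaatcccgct
Bst2: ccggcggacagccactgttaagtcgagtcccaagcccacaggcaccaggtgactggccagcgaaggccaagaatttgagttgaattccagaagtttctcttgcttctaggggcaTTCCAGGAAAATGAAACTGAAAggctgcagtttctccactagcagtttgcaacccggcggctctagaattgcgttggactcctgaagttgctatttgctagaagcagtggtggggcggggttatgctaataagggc
Ifngr2: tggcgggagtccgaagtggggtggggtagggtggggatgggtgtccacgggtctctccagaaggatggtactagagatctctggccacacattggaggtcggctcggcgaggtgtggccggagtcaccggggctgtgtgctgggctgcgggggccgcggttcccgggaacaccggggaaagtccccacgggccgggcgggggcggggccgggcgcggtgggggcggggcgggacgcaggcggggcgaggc
In the windows shown, Irf1 held 1 GAS match and no ISRE match, Bst2 held 1 GAS and 2 ISRE matches, and Ifngr2 held neither. Irf1 had 2 promoters in the source, and only the first is shown. Of 27025 genes with a promoter in the table, 8.13% held GAS and 3.46% held ISRE. Of the 27 IFN-γ response genes, 17 had a promoter there, 35.3% of them with GAS and 47.1% with ISRE. Of the 29 type I interferon-stimulated genes, 21 had one, 19% with GAS and 42.9% with ISRE. A match is a description of these letters and not evidence of binding in the tumors.

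IFN-γ response genes were mostly higher with IgG, and 1 tumor carried the difference. Of 26 tested, 25 had a positive fold change, beside 57.8% of all genes, with a median log2 fold change of 0.83 beside 0.10 over all genes. Only Iigp1, an interferon-inducible GTPase, had an unadjusted p under 0.05 (0.0431 by edgeR, adjusted 0.760), beside 5.42% of all genes. No member separated the groups, beside 8.19% of all genes. Iigp1 was at 445, 25.2 and 74.6 CPM in IgG replicates 1, 2 and 6 and at 54.6, 23.8 and 24.6 CPM in the untreated tumors, so IgG replicate 2 lay among the untreated ones. Summed levels were 4814, 1973 and 1739 CPM in IgG replicates 1, 2 and 6 and 3095, 1333 and 1309 CPM in untreated replicates 1, 2 and 4. Replicate 1 was the highest of its group in both groups, and without IgG replicate 1 the list median was −0.16.

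Irf1 followed this order. Its level was 117, 25.3 and 15.7 CPM with IgG and 41.2, 23.1 and 19.7 CPM without, which overlap, with a log2 fold change of 0.91 (SE 0.80, adjusted p = 0.857 by edgeR) that turned to −0.45 without IgG replicate 1. Untreated tumors at 0 h had 45.7, 47.1 and 49.0 CPM, above 5 of the 6 tumors at 6 h. Gbp2, a guanylate-binding protein, was at 210, 11.4 and 7.55 CPM with IgG against 26.2, 7.28 and 9.33 CPM. Cd74, the invariant chain of MHC class II, was at 953, 835 and 701 CPM against 1353, 401 and 384 CPM, and its highest tumor was untreated replicate 1.

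Cd274, which encodes PD-L1, was at 55.97, 11.96 and 18.1 CPM with IgG and 19.4, 10.8 and 15.5 CPM without, with a log2 fold change of 0.92 (SE 0.76, adjusted p = 0.844 by edgeR) that was −0.018 without IgG replicate 1. Cd8a, the CD8 coreceptor, was at 2.11, 0.778 and 0.702 CPM against 0.878, 0.352 and 0.112 CPM. Ifng itself was detected at 0.672 and 0.0577 CPM in IgG replicates 1 and 2 and at 0.0941 CPM in untreated replicate 1, and had 0 counts in the other 3 tumors. Ifnb1 had 0 counts in all 6 libraries, which allows at most 0.105 CPM in the shallowest of them. Nos2, which encodes iNOS, was at 2.23, 1.47 and 1.93 CPM with IgG and 2.07, 1.98 and 1.24 CPM without, overlapping groups with a log2 fold change of 0.09 (SE 0.86), which reversed under 3 of the alternatives.

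Type I interferon-stimulated genes showed less dependence on a single tumor. Of 29 tested, 28 had a positive fold change (57.8% of all genes did) with a median of 0.58, which stayed between 0.25 and 0.84 with any tumor left out. At an unadjusted p under 0.05, 3 were higher against 3.53% of all genes, and none separated the groups, beside 8.19% of all genes. Cmpk2, a mitochondrial nucleotide kinase induced by interferon, was at 53.6, 15.97 and 38.3 CPM with IgG and 13.9, 20.1 and 18.7 CPM without (log2 fold change 1.04, unadjusted p = 0.0451 by edgeR). Eif2ak2, the double-stranded RNA sensor PKR, was at 150, 94.1 and 175 CPM against 96.2, 98.8 and 104 CPM. For both genes IgG replicates 1 and 6 were above all untreated tumors and IgG replicate 2 was within or below them. Bst2 was at 608, 417 and 314 CPM against 395, 408 and 428 CPM, with no common direction.

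**Figure D3:**
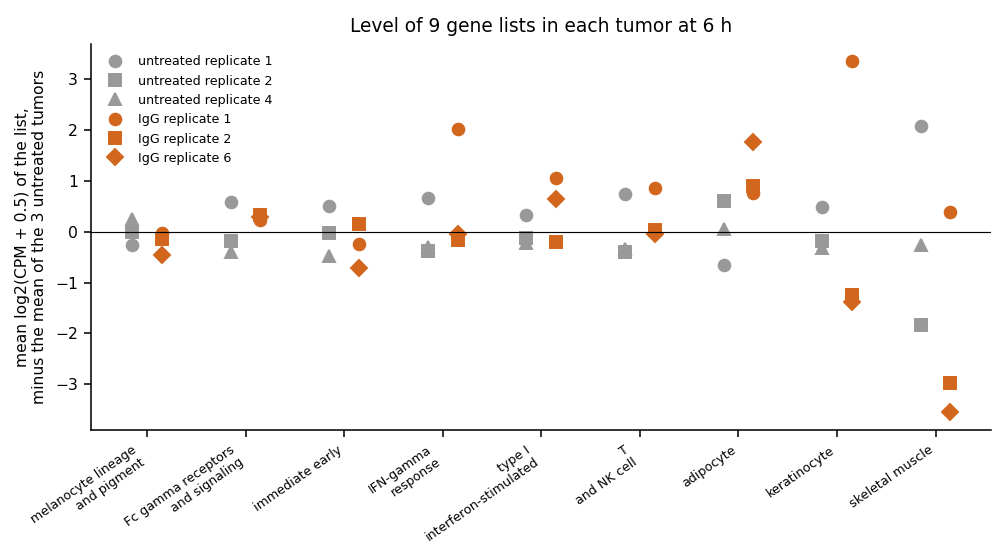
Mean log2(CPM + 0.5) of 9 gene lists in each tumor at 6 h (y axis), minus the mean of the 3 untreated tumors, with untreated tumors in gray, IgG tumors in orange and symbols for replicates. IgG replicate 1 is highest for the IFN-γ response and keratinocyte lists and untreated replicate 1 for skeletal muscle, and of these 9 lists the adipocyte list is the only one with all 3 IgG tumors above the 3 untreated tumors.

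Of 13 genes that sense the Fc part of an antibody, Fcγ receptors and their signaling partners, 11 had a positive fold change. Their median of 0.24 was 0.037 without untreated replicate 4 and 0.71 without untreated replicate 1. None had an unadjusted p under 0.05, beside 5.42% of all genes, and none separated the groups, beside 8.19%, so with 13 genes neither count stood apart from these shares. Fcgr1, the high-affinity IgG receptor, was at 13.02, 5.85 and 12.3 CPM with IgG and 10.6, 4.41 and 3.77 CPM without. Fcgr4, an activating receptor of myeloid cells, was at 35.4, 12.8 and 16.6 CPM against 18.4, 12.9 and 9.36 CPM. In bulk tumors, a change in the number of cells of a type and a change in RNA per cell cannot be told apart.

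Complement genes were higher in 11 of 15, with a median of 0.43 that was 0.82 without untreated replicate 1 and 0.24 without IgG replicate 2. C1ra, a protease of the first complement component, was the only one to separate the groups (6.67%, beside 5.87% of all genes), at 34.4, 25.1 and 37.8 CPM with IgG and 23.02, 17.6 and 13.8 CPM without (log2 fold change 0.84, SE 0.47, adjusted p = 0.760 by edgeR). C3, the central component, was at 70.5, 277 and 249 CPM against 193, 102 and 58.1 CPM.

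Immediate early genes leaned the other way. Of 20 tested, 4 had a positive fold change (57.8% of all genes did) and 16 a negative one. The median of −0.35 was 0.06 without untreated replicate 1. Below in every IgG tumor were 2 (10%, beside 2.31% of all genes), and 1 was above (5%, beside 5.87%). Dusp1, a MAP kinase phosphatase, was the only member with an unadjusted p under 0.05 (1.89% of all genes were lower at that level), at 27.01, 41.5 and 22.7 CPM with IgG and 53.7, 43.4 and 45.5 CPM without. Its log2 fold change was −0.65 (SE 0.25, unadjusted p = 0.0172 and adjusted p = 0.760 by edgeR), and the other 24 libraries ranged from 21.3 to 58.4 CPM, so both groups lay within the range of the experiment. Nr4a1, an orphan nuclear receptor induced within minutes of stimulation, was at 220, 218 and 53.0 CPM with IgG and 272, 245 and 232 CPM without. The 3 untreated tumors and IgG replicates 1 and 2 were above all other 24 libraries, which reached 209 CPM, and IgG replicate 6 was below all of them. Klf6, a zinc finger transcription factor, went against the list, at 129, 143 and 132 CPM with IgG and 122, 105 and 99.5 CPM without.

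Genes that glucocorticoids induce, a readout of handling stress, had a median of 0.07 over 14 genes (−0.16 without IgG replicate 2 and 0.30 without untreated replicate 1). None had an unadjusted p under 0.05 by edgeR, beside 5.42% of all genes. Above in every IgG tumor was 1 (7.14%), beside 5.87% of all genes, so with 14 genes neither count stood apart from these shares. Mt1, a metallothionein, was at 700, 1226 and 282 CPM with IgG and 1041, 1114 and 1152 CPM without. Clock genes had a median of 0.21 over 14 genes (0.083 without IgG replicate 2). Per2, a core repressor of the clock that glucocorticoids also induce, was at 6.6, 7.44 and 10.7 CPM with IgG and 5.02, 3.47 and 1.83 CPM without, with no overlap (log2 fold change 1.26, SE 0.56, unadjusted p = 0.0320 and adjusted p = 0.760 by edgeR). Untreated tumors at 0 h had 1.12, 1.77 and 4.6 CPM, and Per2 levels in the other 24 libraries spanned 1.12 to 12.8 CPM. Bhlhe41, another clock repressor, was at 261, 361 and 186 CPM against 341, 327 and 399 CPM.

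**Figure D4:**
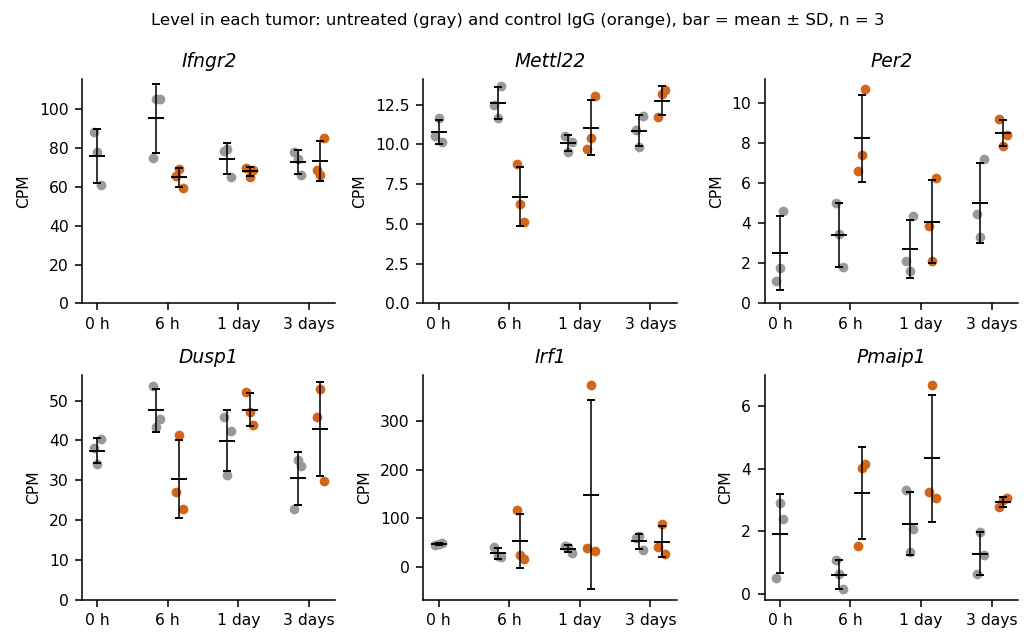
CPM (y axis, linear) of 6 genes in each untreated (gray) and IgG (orange) tumor at 0 h, 6 h, 1 day and 3 days (x axis), with bars for the mean ± SD of 3 tumors. At 6 h Ifngr2, Mettl22 and Dusp1 are lower and Per2 and Pmaip1 higher in all 3 IgG tumors than in all 3 untreated tumors, whereas Irf1 overlaps and is set by IgG replicate 1.

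Among inflammatory cytokine and NF-κB genes, 12 of 19 had a positive fold change with a median of 0.14, which was −0.0077 without untreated replicate 2 and 0.59 without untreated replicate 1. Il33, an alarmin of stromal cells, was at 5.01, 22.97 and 39.98 CPM with IgG and 8.53, 7.99 and 5.34 CPM without (log2 fold change 1.64, SE 0.65, unadjusted p = 0.0191 by edgeR). IgG replicates 2 and 6 were above all untreated tumors and IgG replicate 1 below them. Il1a, the other member past an unadjusted p of 0.05 (3.53% of all genes were higher at that level), had 0 counts in all 3 untreated tumors and in IgG replicate 6.

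Leukocyte markers overlapped between the groups in nearly all cases, as most genes did (8.19% of all genes separated them), and no member of the T and NK cell, B and plasma cell, macrophage and monocyte, CC chemokine or dendritic cell lists separated them. Of 28 T and NK cell genes, 22 were higher, with a median of 0.39 that was −0.03 without IgG replicate 1 and 1.25 without untreated replicate 1. The chemokine Ccl5 was at 30.4, 5.16 and 11.8 CPM against 18.7, 7.91 and 6.80 CPM. Of 17 macrophage and monocyte genes, 11 were higher with a median of 0.18 (0.023 without IgG replicate 2 and 0.67 without untreated replicate 1), and Msr1, a scavenger receptor, was at 8.62, 5.88 and 20.4 CPM against 7.50, 4.25 and 5.34 CPM (unadjusted p = 0.0300 by edgeR). B and plasma cell genes had a median of −0.01, which ran from −0.43 without IgG replicate 2 to 0.31 without untreated replicate 4. The checkpoint median of 0.09 ran from −0.14 without untreated replicate 4 to 0.58 without untreated replicate 1, and the CC chemokine median of 0.51 from 0.16 to 0.91 without the same tumors. The dendritic cell median of 0.02 ran from −0.29 without IgG replicate 6 to 0.53 without untreated replicate 1. Ly6c2, a marker of inflammatory monocytes, was at 38.8, 3.72 and 31.2 CPM with IgG and 13.9, 5.93 and 6.69 CPM without, with IgG replicates 1 and 6 above the untreated tumors and replicate 2 below them, and is uncertain because its near-identical neighbor Ly6c1 can share its reads. Fscn1, an actin bundling protein that mature dendritic cells express, was at 171, 185 and 66.1 CPM against 177, 226 and 240 CPM. It was the only member of the dendritic cell list past an unadjusted p of 0.05 (0.0329 by edgeR), beside 5.42% of all genes. It made up most of the summed level of that list (199, 208 and 100 CPM against 218, 247 and 260 CPM), and which cells it came from was not tested. The neutrophil list was at the edge of detection, with 11 of 18 genes tested and summed levels of 10.9, 14.9 and 13.4 CPM with IgG and 13.4, 11.6 and 7.50 CPM without (median log2 fold change 0.77, from 0.31 without IgG replicate 2 to 1.07 without untreated replicate 2). Its member Cxcl2, a neutrophil-attracting chemokine, was lower in every IgG tumor (9.09% of the list, beside 2.31% of all genes). It was at 0, 0.144 and 0 CPM against 0.376, 0.271 and 0.281 CPM (adjusted p = 0.791 by edgeR). In the checkpoint list, Tigit, an inhibitory receptor of T and NK cells, was the only gene that separated the groups (6.67%, near the 5.87% of all genes). It was at 1.13, 0.894 and 1.05 CPM against 0.0314, 0.163 and 0.197 CPM (adjusted p = 0.760 by edgeR).

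Melanocyte genes leaned lower with IgG. The 13 melanocyte lineage and pigment genes summed to 14870, 14900 and 13080 CPM with IgG and 13190, 16470 and 18770 CPM without, so the labelled tissue was recognizable in all 6 libraries. Of these, 11 had a negative fold change, with a median of −0.23 that lay between −0.39 and −0.13 with any tumor left out. None separated the groups or had an unadjusted p under 0.05, beside 8.19% and 5.42% of all genes. The medians were −0.25 at 1 day and −0.20 at 3 days. Dct, a melanin synthesis enzyme, was at 4851, 5365 and 4391 CPM against 4903, 5731 and 6479 CPM. Mki67, the proliferation antigen, was at 1280, 1457 and 2045 CPM against 1225, 1616 and 1761 CPM, and the 18 mitotic genes had a median of −0.20 (−0.35 without untreated replicate 1 and −0.087 without untreated replicate 2). Beside 0.10 over all genes, medians were −0.01 for the integrated stress response, 0.01 for NRF2, −0.18 for heat shock, 0.10 for hypoxia and −0.10 for nitric oxide and arginine metabolism, and none of these lists had a member past the adjusted threshold. With any tumor left out these 5 medians lay between −0.28 and 0.28. Of the 10 heat shock genes, 8 had a negative fold change. Arg2, a mitochondrial arginase, was the only member of these 5 lists with an unadjusted p under 0.05 (0.0331 by edgeR), beside 5.42% of all genes. It was at 0.122, 0 and 0.351 CPM with IgG and had 0 counts in all 3 untreated tumors.

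Tissue around the tumor varied most. The 16 skeletal muscle genes summed to 1130, 58.1 and 44.7 CPM with IgG and 3808, 136 and 471 CPM without, all 16 with a negative fold change and a median of −1.90, which was −0.28 without untreated replicate 1. Casq1, a calcium buffer of the muscle reticulum, was the only one to separate the groups (6.25%, beside 2.31% of all genes), at 15.98, 9.20 and 7.90 CPM against 28.9, 18.7 and 19.5 CPM. The 13 keratinocyte genes summed to 391, 5.62 and 4.81 CPM with IgG and 45.8, 22.2 and 17.5 CPM without, with a median of 2.38 that was −2.17 without IgG replicate 1. IgG replicate 1, the tumor with the most interferon-induced transcripts, thus also held the most keratinocyte transcripts, including Dsp of the desmosome at 110 CPM against at most 11.9 CPM in the other 5 tumors. Krt14, a defining keratin of basal keratinocytes, was at 29.1 CPM in that tumor and at 0 counts in IgG replicates 2 and 6. The part of skin or muscle in the interferon differences was not tested.

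Adipocyte genes were the list whose members most often separated the groups. All 10 had a positive fold change with a median of 1.79, and 4 (40%) were above in every IgG tumor, beside 5.87% of all genes. Summed levels of the list overlapped, at 103, 174 and 288 CPM with IgG and 150, 111 and 61.4 CPM without. Cidec, a lipid droplet protein, was at 3.73, 2.83 and 8.14 CPM with IgG and 0.157, 1.68 and 1.01 CPM without (log2 fold change 2.35, SE 1.12, unadjusted p = 0.0452 and adjusted p = 0.760 by edgeR). Lep, the adipokine leptin, was at 0.794, 2.02 and 5.86 CPM against 0, 0.785 and 0.759 CPM. Plin1 and Pparg were the other 2 genes of the list that separated the groups. With any tumor left out the median stayed between 1.08 and 2.05, but against the untreated tumors of 0 h and 6 h together it was −1.0. Cldn5, a tight junction protein of endothelium, was the only endothelial member to separate the groups (7.69%, beside 2.31% of all genes). It was at 0.153, 0.404 and 0 CPM against 0.565, 1.19 and 1.71 CPM, and 10 of the 13 endothelial genes had a negative fold change. Fibroblast genes had a median of 0.35, with Pdgfra, a receptor of mesenchymal cells, at 27.8, 52.4 and 85.5 CPM against 35.3, 32.2 and 29.2 CPM, and erythrocyte genes a median of −0.59. Leaving out IgG replicate 2 gave a fibroblast median of 0.15, and leaving out IgG replicate 1 gave 0.69. The erythrocyte median turned to 0.28 without untreated replicate 2 and was −1.05 without untreated replicate 1.

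Among single genes of at least 1 CPM on average that separated the groups, 397 were higher and 457 lower, and the 10 named genes per direction were those of smallest p. Mettl22, a protein methyltransferase at chr16:8470788-8490684, had the smallest p among them, at 8.80, 6.26 and 5.13 CPM with IgG and 12.5, 11.7 and 13.7 CPM without. Its log2 fold change was −0.91 (SE 0.22, unadjusted p = 0.000277 and adjusted p = 0.760 by edgeR), and the other 24 libraries ranged from 6.59 to 13.4 CPM. IgG replicates 2 and 6 were below all of those libraries and untreated replicate 4 was above them.

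The other named lower genes were mt-Co2, Rita1, Cox7a2l, Cradd, Cenpx, Smim20, Mien1 and Ndufb7, with log2 fold changes from −1.36 (Rita1) to −0.51 (Ndufb7). Cox7a2l, an assembly factor of respiratory supercomplexes, was at 40.7, 42.2 and 22.1 CPM with IgG and 47.9, 51.7 and 63.0 CPM without. Ndufb7, a subunit of complex I, was at 69.1, 70.3 and 45.2 CPM against 71.9, 94.8 and 96.1 CPM. Cenpx, a protein of the kinetochore and of DNA repair, was at 55.1, 54.8 and 31.03 CPM against 57.2, 88.8 and 86.3 CPM. In 9 of the 10 named lower genes IgG replicate 6 was the lowest of the 6 tumors. The level of mt-Co2 (5.65, 4.41 and 5.62 CPM against 8.31, 9.78 and 11.8 CPM) is uncertain, because reads of mitochondrial genes can be shared with nuclear copies.

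The named higher genes were Bdp1, Slc16a12, Adora1, Pmaip1, Soat2, Tc2n, Rabgef1, Xrn1, Zfp869 and Hook3. Bdp1, a subunit of the RNA polymerase III factor TFIIIB, was at 118, 124 and 181 CPM with IgG and 112, 108 and 97.1 CPM without (log2 fold change 0.42, SE 0.13, unadjusted p = 0.00290 by edgeR). Xrn1, the main cytoplasmic exonuclease that degrades RNA from its 5′ end, was at 60.3, 54.8 and 81.7 CPM against 49.3, 51.5 and 49.5 CPM. Pmaip1, which encodes the proapoptotic protein NOXA, was at 1.53, 4.01 and 4.14 CPM against 1.07, 0.623 and 0.141 CPM, and untreated tumors at 0 h, at 0.505, 2.89 and 2.38 CPM, covered most of that range. In 9 of these 10 genes IgG replicate 6 was the highest of the 6 tumors, and without it the log2 fold change of Bdp1 was 0.19. The median exon length was 4978 bases for the named higher genes and 2873 bases for the named lower genes.

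Short housekeeping transcripts leaned lower, in lists added after values were seen. Of 82 cytosolic ribosomal protein genes, 79 had a negative fold change (median −0.39) and 17 were lower at an unadjusted p under 0.05, beside 1.89% of all genes. None of the 82 was below in every IgG tumor, beside 2.31% of all genes. In the shortest quartile of abundant protein-coding genes, 197 of 3218 were lower at that unadjusted level, and only 28.2% had a positive fold change. Of 77 nuclear genes of the respiratory chain, 74 had a negative fold change (median −0.47), 22 were lower at that level and 7 (9.09%) were below in every IgG tumor, beside 2.31% of all genes. Mitochondrial ribosomal protein genes gave 68 of 74 and a median of −0.36, with 11 lower at that level and 6 (8.11%) below in every IgG tumor. The 13 protein-coding genes of mitochondrial DNA gave 12 of 13 and −0.65, with 4 lower at that level and 3 (23.1%) below in every IgG tumor. Their summed levels overlapped, at 48000, 35820 and 50670 CPM with IgG and 48630, 76920 and 83640 CPM without. Of 348 zinc finger protein genes, 212 had a positive fold change (median 0.08), near the share of 57.8% and the median of 0.10 over all genes. Of 52 hair keratin genes, 45 had a positive fold change (median 3.81). Hair keratin genes summed to 74.8, 5.68 and 10.7 CPM with IgG and 2.42, 4.20 and 2.02 CPM without, so IgG replicate 1, the tumor with the most keratinocyte transcripts, was far above the rest. Summed respiratory chain levels were 7644, 7699 and 5301 CPM with IgG and 6560, 9891 and 10660 CPM without. IgG replicate 6 was the lowest tumor, untreated replicates 2 and 4 were the highest, and untreated replicate 1 was below IgG replicates 1 and 2.

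The same contrast at later times was run to see whether the 6 h values recurred. At 1 day, 0 genes (0%) passed the adjusted threshold by edgeR (25 by DESeq2), while 1077 (4.01%) were higher and 380 (1.42%) were lower before adjustment. At 3 days 0 genes (0%) passed (15 by DESeq2), and 366 (1.36%) were higher and 343 (1.28%) lower before adjustment. The difference between the 6 h and the 1 day effect passed in 0 genes by edgeR (8 by DESeq2), with 1071 (3.99%) past 0.05 before adjustment, and that between 6 h and 3 days in 0 (11 by DESeq2), with 1247 (4.64%). Mettl22 was at log2 fold changes of 0.13 at 1 day and 0.23 at 3 days beside −0.91 at 6 h, the time it was chosen on. For Ifngr2 the later values were −0.13 and 0.01, and for Dusp1 0.26 and 0.49.

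The all-gene medians were 0.10 at 6 h, 0.04 at 1 day and −0.03 at 3 days. The IFN-γ response median was 0.83 at 6 h, 1.71 at 1 day and 0.01 at 3 days, and that of type I interferon-stimulated genes 0.58, 0.70 and 0.05. Fcγ receptor genes had medians of 0.24, 0.70 and 0.48. Immediate early genes had −0.35, 0.25 and 0.34. Skeletal muscle genes had −1.90, 7.08 and −2.02 and keratinocyte genes 2.38, 5.98 and −0.58. At 1 day muscle transcripts summed to 21090 CPM in IgG replicate 6 and to at most 32.6 CPM in the other 2 IgG tumors, so 1 tumor made that median. The same tumor held 1054 CPM of keratinocyte transcripts, against 9.28 and 8.04 CPM in the other 2. IFN-γ response genes at 1 day summed to 12600 CPM in IgG replicate 4, 2793 and 5204 CPM in IgG replicates 2 and 6 and 2027 to 2720 CPM in the untreated tumors, so IgG replicate 4 was far above the rest.

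**Figure D5:**
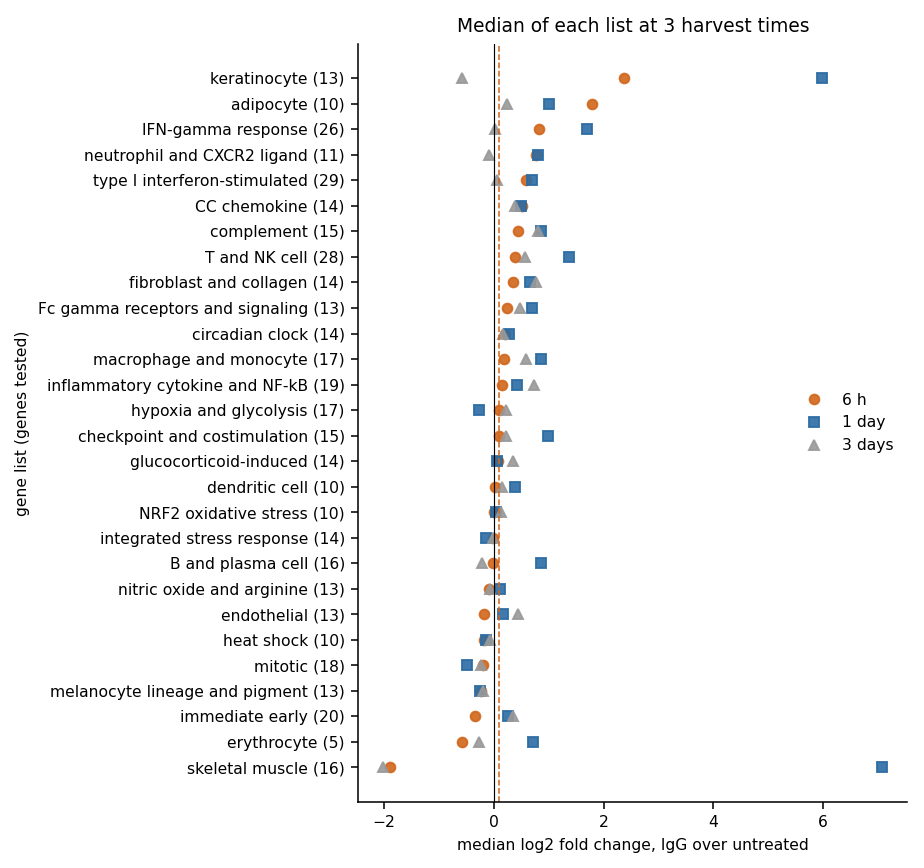
Median log2 fold change of IgG over untreated tumors (x axis) for 28 gene lists (y axis, number of genes tested in parentheses) at 6 h (orange), 1 day (blue) and 3 days (gray), with the all-gene median at 6 h as a dashed line at 0.10. Skeletal muscle runs from −1.90 at 6 h to 7.08 at 1 day, and the IFN-γ response from 0.83 at 6 h to 0.01 at 3 days.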

How the data were processed

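According to the methods and the labels, the authors made strand-specific libraries from total tumor RNA, trimmed reads with cutadapt 1.8.1, aligned them to mm10 with STAR 2.7.7a and estimated gene values with RSEM 1.3.0 on GENCODE vM21. The deposited values are whole-number counts per gene without normalization, for 55450 genes and 48 libraries, and the name of the table refers to another counter than the methods do. Here, the 30 libraries of the first experiment were fitted together in 10 groups with edgeR 4.0.16 in R 4.3.3 (TMM, quasi-likelihood test, limma 3.58.1), which left 20 residual degrees of freedom. Low genes were removed by filterByExpr (minimum count 10). The Benjamini-Hochberg adjustment ran over 26848 genes with a threshold of 0.05. The 18 libraries of the second experiment were not used. P-values measure the spread between these tumors only. Levels are CPM of the TMM-scaled total, SD is over 3 tumors, and a floor of 3 counts gave the limit for 0 counts, which covers counting error only.

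The comparison, the 28 lists (438 genes) and the naming rule were chosen with earlier results of these data known. The rule names genes past the adjusted threshold, then fills to 10 per direction with the smallest p among genes of at least 1 CPM whose groups do not overlap, 7 genes of interferon and nitric oxide biology (1 is not reported here), and up to 4 members per list, of which a part is given. DESeq2 1.42.0, its size factors, no filter, a replicate block, only the 6 libraries, the 0 h and 6 h untreated tumors pooled, a sensory receptor covariate and each tumor left out were the alternatives. A length covariate and both replicate 1 tumors left out were added after seeing the data. The fit was tested on counts simulated with the fitted spread of each gene, in which 200 genes were changed in the 6 h IgG group. It called 16 of them at 2-fold, 90 at 4-fold and 126 at 16-fold. Promoters came from RefSeq on GRCm38.p6 and coordinates from GENCODE vM21 on GRCm38.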

Additional observations from a re-analysis of the deposited data

How the results depend on the processing

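With each tumor left out in turn, 0 to 1 genes passed the adjusted threshold at 6 h (1 without untreated replicate 2, Pkd1l3), the genes higher at an unadjusted p under 0.05 by edgeR numbered 478 (without untreated replicate 4) to 1247 (without untreated replicate 1), and the lower genes 124 (without IgG replicate 6) to 1189 (without IgG replicate 2). With 1 tumor left out a group has 2 tumors, and its spread comes from all 30 libraries. The DESeq2 Wald test called 10 genes at 6 h, 25 at 1 day, 15 at 3 days, 8 for the 6 h effect minus the 1 day effect and 11 for 6 h minus 3 days, where edgeR called 0. Without a filter edgeR called 206 genes at 1 day and 60 for 6 h minus 1 day. The higher genes numbered 304 with the sensory receptor covariate, 293 with only the 6 libraries in the fit (18750 genes) and 568 with the length covariate. The lower genes numbered 826 without a filter, 84 with only the 6 libraries, 859 against pooled untreated tumors, 1685 without both replicate 1 tumors and 218 with the length covariate. The lower share, 34.9% with all tumors, was 58.1% with the sensory receptor covariate and 22.3% with only the 6 libraries. The cause was not tested.

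Deviation correlations between IgG and untreated tumors were −0.0867 and 0.0882 for the 2 shared replicate numbers. Those for unequal numbers ran from −0.14 to 0.139. With 2 shared numbers, these values cannot show whether equal numbers pair the tumors. With the replicate block, edgeR called 0 genes, and before adjustment 812 were higher and 228 lower.

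Without IgG replicate 1 these log2 fold changes turned negative: Irf1 −0.45, Cd274 −0.018, Gbp2 −0.59, Bst2 −0.17, Ccl5 −0.39, Krt14 −7.22, Dsp −2.17 and Nos2 −0.051. Without untreated replicate 4 Nos2 was −0.11 and Cd74 −0.081, without untreated replicate 2 Cd74 was −0.067, without untreated replicate 1 Ttn was 1.02 and Mki67 −0.083, and without IgG replicate 6 Mki67 was −0.16. Over the tumors left out the ranges reached up to 1.34 (Irf1), 1.10 (Ccl5), 1.08 (Cd74), 3.2014 (Gbp2), 0.24 (Nos2), 1.28 (Cd274), 0.32 (Bst2), 0.19 (Mki67), 4.85 (Krt14) and 3.50 (Dsp), and down to −5.21 (Ttn). Without both replicate 1 tumors Irf1 was −0.061, Bst2 −0.19, Krt14 −6.999 and Dsp −1.27. Against pooled untreated tumors C3 was −0.22, Krt14 −3.11, Dsp −3.20 and Cidec −0.34. With the sensory receptor covariate Nos2 was −0.15 and Ttn 2.6975, and with the replicate block Mki67 was −0.042. Krt14 has 0 counts in IgG replicates 2 and 6, so its fitted values are no bounds.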

Other observations

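The sample titles give the group of all 6 libraries, and no library was left without a group. Of the transcripts with the smallest unadjusted p-values, several had no counts in 1 group and lay under the level required for naming. Mxra8os, an antisense transcript, was at 0.565, 0.433 and 0.562 CPM in untreated replicates 1, 2 and 4 and had 0 counts in all 3 IgG tumors, and it was named here after its values were seen. Socs1, a feedback inhibitor of interferon signaling, also named after its values were seen, was at 6.94, 3.55 and 0.421 CPM with IgG and 1.32, 1.87 and 1.32 CPM without, with a log2 fold change of 1.27 (adjusted p = 0.763 by edgeR).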
